A study of Mus musculus with 35 samples.

Results

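In differentiating mouse embryonic stem cells (ESCs), 63 genes differed in the same direction between cells given extra Dnmt1 and cells given an empty vector in each of 3 *Tet3* genotypes: 34 were raised and 29 were lowered. The 63 genes were chosen by their measured values. In each genotype the mean of log2(value + 1) over the 2 Dnmt1 samples had to differ from that over the 2 empty-vector samples by at least 0.4, with 1 sign in all 3 genotypes, and the mean value over the 12 samples had to reach 50. Dnmt1 itself was left out, and 14109 of the 18091 genes in the table reached that mean. The differences between Dnmt1 and empty vector below therefore describe the choice and carry no test.

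DNMT1 is the maintenance DNA methyltransferase: after replication it restores CpG methylation on the new strand at sites where the parental strand carries it. TET enzymes oxidize 5-methylcytosine, which opens routes to the loss of the mark, and they also act through partners without catalysis. Promoters of many germline genes are kept silent by DNA methylation in somatic cells, and cells with too little DNA methyltransferase are known to transcribe interferon-stimulated genes when silenced repeats are read out.

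The cells were male V6.5 ESCs of mixed 129 and C57BL/6 origin in 3 *Tet3* genotypes: wild type (*Tet3*+/+), mutant (*Tet3* m/m), whose TET3 carries substitutions that abolish catalysis, and knockout (*Tet3*-/-), which lacks an exon of *Tet3*. All were differentiated toward neuroectoderm (NE) by LIF withdrawal with 1 µM retinoic acid, and RNA was sequenced. In the Dnmt1 experiment (2 samples per genotype and vector) cells received a pCAG plasmid for myc-tagged Dnmt1 or the matching empty vector at the start of differentiation, and both arms were selected with blasticidin before RNA was taken at 72 hours, so the comparison is between selected populations. The other samples were untransfected day 3 cells (3 wild-type samples, 3 mutant samples and 2 knockout samples, from separate clones) and a Tet3-CD experiment (1 sample per genotype and vector), in which cells received the HA-tagged catalytic domain of wild-type TET3 or an empty vector during differentiation and were collected later than day 3. Values are counts that the authors divided by DESeq2 size factors, each experiment on its own, so levels are set side by side between experiments only as a description. Reads recovered from the values came to 31155842 to 50845950.0 per sample in the Dnmt1 experiment, 36594650.0 to 47710548 on day 3 and 33475041 to 37707719 in the Tet3-CD experiment.

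*Dnmt1* followed the labels in every sample. It read 14678 and 15225 with empty vector and 22799 and 23768 with Dnmt1 in wild type, 11934 and 11285 against 20244 and 23211 in mutant cells, and 17356 and 17554 against 33380.5 and 39854 in knockout cells. The means with Dnmt1 were 1.56-fold, 1.87-fold and 2.10-fold those with empty vector, and the highest level was that of the knockout cells. *Tet3* read 2957 and 3075 in the empty-vector wild-type samples, 1125 and 964 in mutant cells and 2520.3 and 2571 in knockout cells. A gene-level value does not test the deleted exon. With Dnmt1, *Tet3* read 3514 and 3516, 1173 and 1369 and 2632 and 2389.6 in the same order of genotypes.

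The genotypes of the Dnmt1 experiment differed in their markers with empty vector alone. The 28 pluripotency factors summed to 95831 and 95085 in the empty-vector wild-type samples, 210907 and 206386 in mutant cells and 34367 and 36328 in knockout cells, with *Dppa5a* the most abundant. With Dnmt1 the sums were 94001 and 94918, 220450.0 and 215094 and 40564 and 38599.7. The 24 neural markers, led by *Nes*, summed to 18951 and 19283, 13517 and 13453 and 31106 and 30417 with empty vector. With Dnmt1 they came to 24828 and 24336, 18012 and 17717 and 31924 and 33286. The 26 markers of extraembryonic endoderm, led by *Col4a1*, summed to 372847 and 387969 in wild type, 930257 and 840649 in mutant cells and 173085 and 170425 in knockout cells with empty vector, so cells labelled NE also carried these transcripts. With Dnmt1 they came to 351906 and 387342, 796316 and 834695 and 189958 and 200972, below both empty-vector sums in mutant cells and above both in knockout cells. The neural sum includes *Nes* and *Tubb3*, themselves among the 63 genes. The neural factor *Sox1* read 2254 and 2592, 881 and 929 and 349 and 390.4 in the same order, lowest in knockout cells, and the endodermal factor *Gata4* 3492 and 3794, 10492 and 9941 and 771 and 717. The markers of trophoblast and simple epithelium (14 of 15 genes, *Tpbpa* being absent, led by *Krt8*) summed to 59213 and 59707, 22773 and 25276 and 128453 and 124809 with empty vector and 58037 and 58477, 25654 and 23918 and 145085 and 168246 with Dnmt1. In bulk RNA, fewer cells of a type and less RNA per cell cannot be told apart.

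Few genes passed the threshold in every genotype. Of the 14109 genes, 3.26% were raised and 5.34% lowered by at least 0.4 in wild type, 4.91% and 5.41% in mutant cells, and 7.40% and 4.34% in knockout cells. Over these genes the differences correlated (Pearson) at 0.46 between wild type and mutant cells. Knockout cells correlated at -0.05 with wild type and -0.10 with mutant cells. Wild type and mutant cells shared 194 raised and 312 lowered genes, with 40 opposite. For wild type and knockout cells these counts were 84, 94 and 270, and for mutant and knockout cells 125, 69 and 332. The 34 raised genes are 0.241% and the 29 lowered genes 0.206%, which restates the rule. The median difference of the raised genes was 0.51 in wild type, 0.73 in mutant cells and 0.66 in knockout cells, and that of the lowered genes -0.63, -0.67 and -0.56. Among the raised genes the largest of the 3 differences lay in wild type for 4, in mutant cells for 18 and in knockout cells for 12. Among the lowered genes these counts were 9, 12 and 8. In 30 of the 34 raised and 25 of the 29 lowered genes the Dnmt1 and empty-vector samples lay apart in all 3 genotypes, compared with 4.12% and 3.28% of the 14109 genes, but the rule used this contrast, so nothing is read from these counts.

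**Figure D1:**
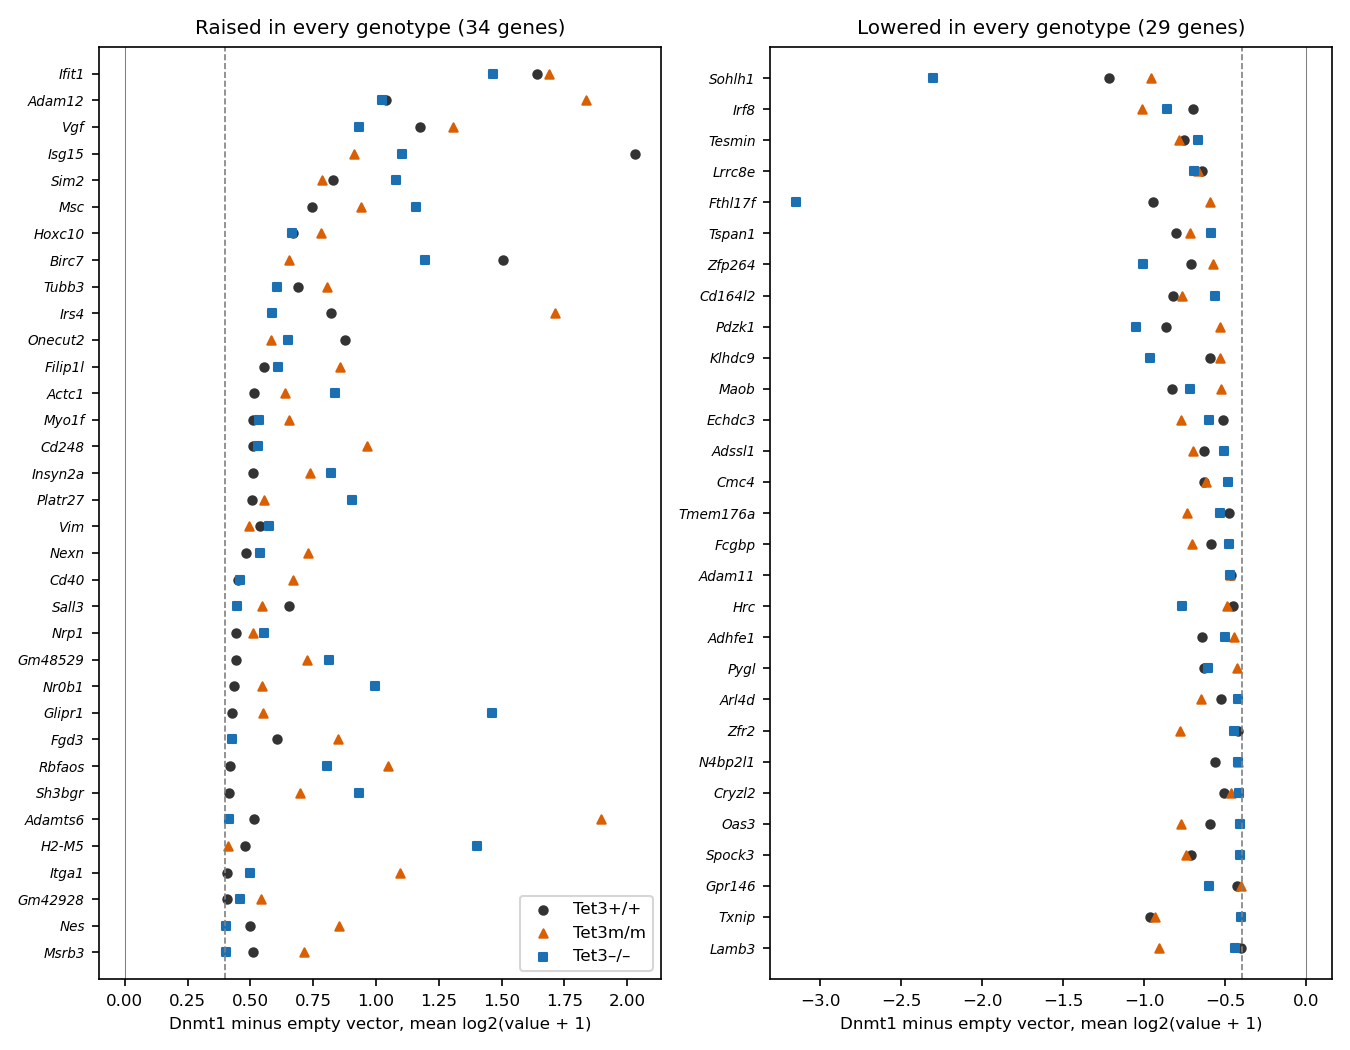
Difference between Dnmt1 and empty vector for each of the 63 genes, as mean log2(value + 1), with 1 point per genotype; the dashed lines mark the threshold of 0.4. The points show the values that chose the genes, and *Fthl17f* and *Sohlh1* lie farthest out in knockout cells, where their values are near 0.

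The raised gene whose smallest difference was largest is interferon-stimulated. *Ifit1*, whose product binds foreign RNA lacking the methylated cap of cellular messages, read 19.8 and 27.8 with empty vector and 57.5 and 98.7 with Dnmt1 in wild type, 20.1 and 7.81 against 41.1 and 45.0 in mutant cells, and 56.8 and 65.6 against 178 and 163 in knockout cells. Its differences were 1.64, 1.69 and 1.47 in wild type, mutant cells and knockout cells, and no Dnmt1 sample overlapped the empty-vector samples of its genotype. *Isg15*, a ubiquitin-like modifier of the same response, read 29.6 and 20.9 with empty vector and 102 and 108 with Dnmt1 in wild type, 31.1 and 33.9 against 71.5 and 53.7 in mutant cells, and 53.6 and 88.9 against 159 and 140.4 in knockout cells. The smallest of its differences, 0.91, lay in mutant cells and the largest, 2.03, in wild type. Most other interferon genes did not pass. Of the 20 listed genes of interferon response and antigen presentation with a mean of 50, these 2 were the only ones to pass in every genotype, and 4 were raised and 3 lowered by at least 0.4 in wild type, 2 and 2 in mutant cells, and 4 and 0 in knockout cells. The list's median difference was -0.13, -0.17 and 0.19, against 0.01, 0.01 and 0.00 for all genes. *Ifit2*, a close relative that is not a member, read 156 and 129.9 against 157 and 133 in wild type, and *Usp18*, the protease that removes Isg15, 56.3 and 53.3 against 27.7 and 28.2. *Irf8* and *Oas3*, an interferon regulatory factor and an interferon-induced oligoadenylate synthetase, were among the lowered genes.

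Promoters are shown for the interferon genes because members of 1 response were both raised and lowered, and for *Sohlh1* because germline promoters are known targets of DNA methylation. RefSeq promoters (GRCm38.p6) matched 17 of the 34 raised and 25 of the 29 lowered genes, and the 250 bases before the start were read for the first promoter listed for each gene. The letters TTTC, any 2 bases and TTTC again, the core of the interferon-stimulated response element, were sought on both strands; the motifs and the promoters shown were chosen after the values were seen. They occur in 3.04% of 27025 promoters of the same length, and in 2 of the 17 raised and 2 of the 25 lowered genes with a promoter: 2 times in *Ifit1*, 3 times with overlaps in *Isg15*, and 1 time in *Oas3* and in *Spock3*. That of *Irf8* has none. The sequences below are 5′ to 3′ on the strand of the gene, with the matched letters in capitals; they lie at chr19:34640639-34640888, plus strand (*Ifit1*), chr4:156200819-156201068, minus strand (*Isg15*) and chr5:120777660-120777909, minus strand (*Oas3*).
Ifit1: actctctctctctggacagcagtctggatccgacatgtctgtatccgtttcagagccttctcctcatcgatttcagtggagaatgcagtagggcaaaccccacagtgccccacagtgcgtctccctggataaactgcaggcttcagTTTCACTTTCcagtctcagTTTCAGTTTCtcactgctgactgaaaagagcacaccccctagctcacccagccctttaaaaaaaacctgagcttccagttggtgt
Isg15: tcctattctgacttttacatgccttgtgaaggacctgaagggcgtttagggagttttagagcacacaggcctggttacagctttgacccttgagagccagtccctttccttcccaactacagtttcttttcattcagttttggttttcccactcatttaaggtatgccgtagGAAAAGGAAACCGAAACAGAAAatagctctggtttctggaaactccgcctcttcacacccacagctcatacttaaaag
Oas3: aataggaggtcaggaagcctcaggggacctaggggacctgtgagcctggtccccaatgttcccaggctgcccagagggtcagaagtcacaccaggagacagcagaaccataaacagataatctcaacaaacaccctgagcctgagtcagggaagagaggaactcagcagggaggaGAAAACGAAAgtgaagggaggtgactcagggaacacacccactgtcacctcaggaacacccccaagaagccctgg

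A match describes letters and not a site in use: the promoter of *Oas3*, which was lowered, holds them as do those of the raised *Ifit1* and *Isg15*.

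The raised genes include 2 of the 20 listed neural genes with a mean of 50. *Nes* encodes nestin, the intermediate filament of neural progenitors, and read 4531 and 4370.5 with empty vector and 6384 and 6185 with Dnmt1 in wild type, 897 and 986 against 1632 and 1772 in mutant cells, and 12451 and 11862 against 15014 and 17230.4 in knockout cells. Its level was lowest in mutant cells and highest in knockout cells, and every Dnmt1 sample lay above its own empty-vector samples. *Tubb3*, the neuronal beta-tubulin, read 482 and 519 with empty vector and 840.0 and 777 with Dnmt1 in wild type, 729 and 771 against 1302 and 1321 in mutant cells, and 931 and 804 against 1213 and 1426 in knockout cells. Its differences of 0.69, 0.81 and 0.60 lay close together. *Vgf*, a secreted neuropeptide precursor induced by nerve growth factor, read 83.0 and 67.3 with empty vector and 179 and 161 with Dnmt1 in wild type, 28.3 and 36.5 against 95.6 and 68.4 in mutant cells, and 507 and 498 against 852 and 1082 in knockout cells. *Onecut2*, a homeobox factor of neurons and liver, had differences of 0.88, 0.58 and 0.65, and 1 of its empty-vector wild-type samples, at 172, lay close to the lower Dnmt1 sample, at 197. *Sim2*, a bHLH-PAS factor, had differences of 0.83, 0.79 and 1.08, and *Hoxc10*, a posterior Hox gene, of 0.67, 0.78 and 0.66. These 4 are not on the neural list. In that list 10 genes were raised and 0 lowered by at least 0.4 in wild type, 8 and 1 in mutant cells, and 2 and 7 in knockout cells. Its median difference was 0.38 in wild type, 0.36 in mutant cells and -0.37 in knockout cells, opposite in knockout cells to the differences of *Nes* and *Tubb3*.

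Further raised genes encode cytoskeletal, adhesion and matrix proteins. *Vim*, the intermediate filament vimentin, read 11262 and 10784 with empty vector and 16499 and 15500.3 with Dnmt1 in wild type, 4892 and 5169 against 7091 and 7095 in mutant cells, and 22383 and 21414 against 29133 and 36489.8 in knockout cells. Its differences, 0.54, 0.50 and 0.57, were nearly equal in the 3 genotypes. *Adam12*, a membrane-bound metalloprotease, read 58.3 and 41.7 with empty vector and 109 and 96.7 with Dnmt1 in wild type, 20.1 and 13.0 against 50.1 and 72.8 in mutant cells, and 362 and 347 against 581 and 898 in knockout cells, with differences of 1.04, 1.83 and 1.02. *Actc1*, the cardiac alpha-actin and a member of the mesoderm list, read 461 and 355 with empty vector and 521 and 643 with Dnmt1 in wild type, 31.1 and 39.1 against 75.1 and 39.8 in mutant cells, and 857 and 762 against 1282 and 1623 in knockout cells. In mutant cells its lower Dnmt1 sample, at 39.8, stood next to an empty-vector sample at 39.1. *Cd248*, the stromal receptor endosialin, read 444 and 379 with empty vector and 562 and 606 with Dnmt1 in wild type, 76.8 and 78.1 against 164 and 140.3 in mutant cells, and 1667 and 1443 against 2044 and 2450.3 in knockout cells. *Filip1l*, a relative of a filamin-binding protein, had differences of 0.56, 0.86 and 0.61. Those of *Nexn*, an F-actin binding protein, were 0.48, 0.73 and 0.54, and those of *Myo1f*, a myosin of leukocytes, 0.51, 0.65 and 0.54. *Nrp1*, a co-receptor for semaphorins and VEGF, differed by 0.44, 0.51 and 0.55, *Itga1*, a collagen-binding integrin subunit, by 0.41, 1.10 and 0.50. The secreted metalloprotease *Adamts6* differed by 0.52, 1.90 and 0.42, most in mutant cells. The 19 listed targets of SRF and YAP, the factors that read actin tension, hold none of the 63 genes. Led by *Actg1*, they summed to 337274 and 325694 with empty vector and 355556 and 346632 with Dnmt1 in wild type, 226254 and 229836 against 268710.0 and 263929 in mutant cells, and 538039 and 523780.0 against 667973 and 791523 in knockout cells. The 12 feeder fibroblast markers in the table (of 14 listed), led by *Col1a1*, summed to 27116 and 24987 against 27967 and 26393 in wild type, 7812 and 7771 against 9526 and 9744 in mutant cells, and 55599 and 54956 against 52197 and 65396 in knockout cells. *Fap* and *S100a4* were absent. By at least 0.4, 0 of the 19 SRF and YAP targets were raised in wild type, 7 in mutant cells and 14 in knockout cells, and 0 were lowered, with median differences of 0.09, 0.24 and 0.48. Of the 11 feeder markers with a mean of 50, 3 were raised and 1 lowered in wild type, 7 and 0 in mutant cells, and 1 and 2 in knockout cells, with medians of 0.14, 0.65 and 0.04. The part of either list in these differences was not tested.

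Other raised genes act in pluripotent cells or as regulators. *Nr0b1*, the orphan nuclear receptor Dax1 of the pluripotency network, read 271 and 292 with empty vector and 368 and 393 with Dnmt1 in wild type, 887 and 906 against 1343 and 1276 in mutant cells, and 34.1 and 21.2 against 65.9 and 45.2 in knockout cells. It was the only 1 of 28 pluripotency factors to pass in every genotype. In that list 3 genes were raised by at least 0.4 in wild type, 5 in mutant cells and 16 in knockout cells, and 0, 0 and 2 were lowered. *Sall3*, a zinc-finger factor, read 301 and 293 with empty vector and 454 and 484 with Dnmt1 in wild type, 1394 and 1375 against 2058 and 1989 in mutant cells, and 110.4 and 94.2 against 145 and 134 in knockout cells, and *Platr27*, a noncoding RNA of pluripotent cells, had differences of 0.50, 0.55 and 0.90. *Irs4*, an insulin receptor substrate, differed most in mutant cells: it read 134 and 145 with empty vector and 245 and 249.8 with Dnmt1 in wild type, 309 and 335 against 1055 and 1057 in mutant cells, and 62.5 and 66.7 against 111 and 85.7 in knockout cells. *Msc*, the bHLH factor musculin, read 27.7 and 29.0 with empty vector and 51.1 and 45.3 with Dnmt1 in wild type, 83.2 and 116 against 203 and 177 in mutant cells, and 6.496 and 2.12 against 8.04 and 11.9 in knockout cells, so in knockout cells it was nearly silent in both arms. *Birc7*, an inhibitor of apoptosis, differed by 1.51, 0.65 and 1.197. The differences were 0.45, 0.67 and 0.46 for *Cd40*, a receptor of the TNF family, and 0.48, 0.41 and 1.40 for the class I histocompatibility gene *H2-M5*. *Glipr1*, *Fgd3*, *Insyn2a*, *Sh3bgr*, *Msrb3*, *Rbfaos*, *Gm48529* and *Gm42928* complete the list. *Rbfaos* overlaps *Rbfa*, and since the sources used here do not say that reads were counted by strand, reads of such overlapping pairs cannot be told apart. Of the 60 members with a RefSeq entry, 26 overlap another gene, among them *Ifit1* (with *Ifit1bl1*), *Isg15* (with *Gm46878*), *Adam12*, *Irs4*, *Tmem176a* and *Txnip*.

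**Figure D2:**
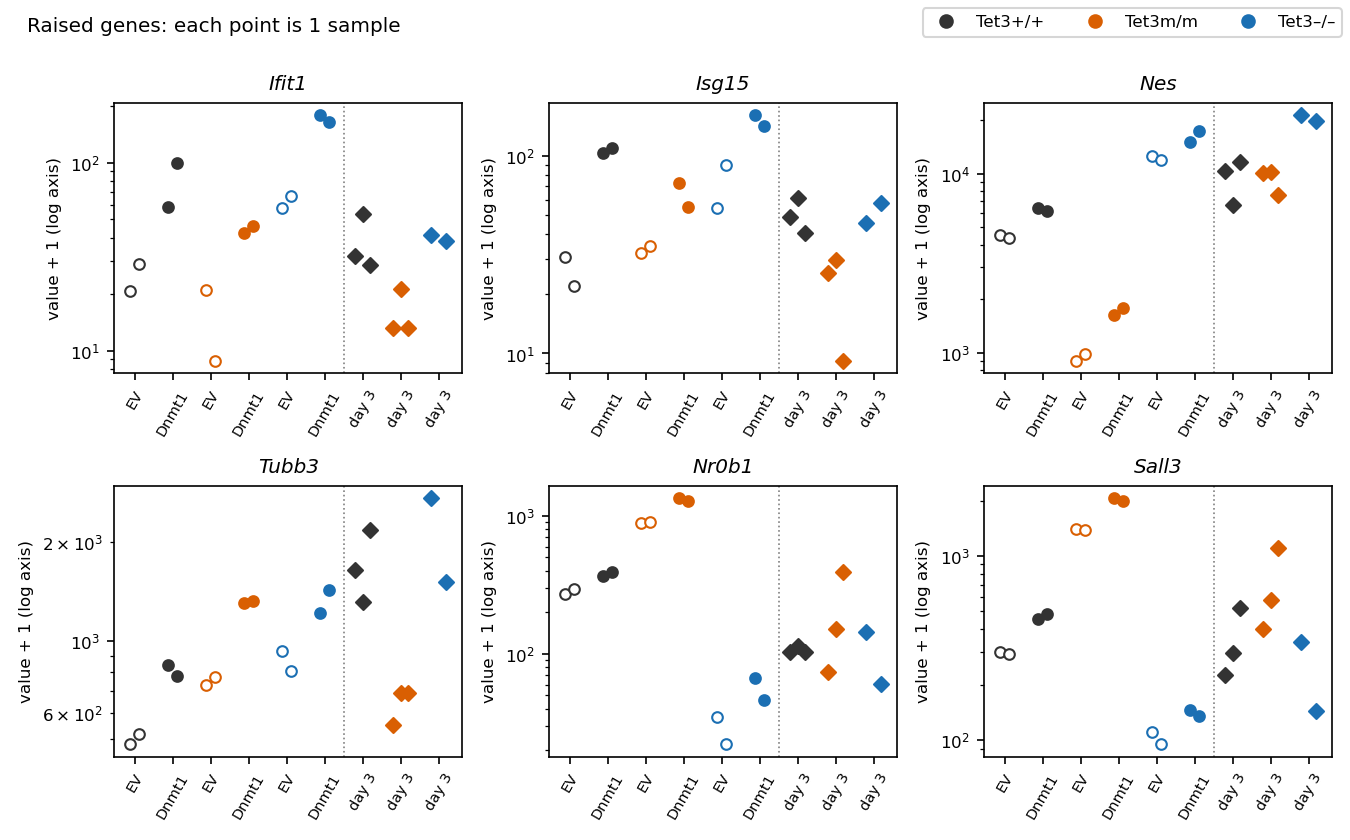
Value + 1 in each sample, on a log axis, for 6 raised genes: open circles are empty-vector samples, filled circles Dnmt1 samples and diamonds untransfected day 3 samples, coloured by genotype. In each genotype the filled circles lie above the open ones, while *Nes* is lowest and *Nr0b1* and *Sall3* are highest in the mutant samples of the Dnmt1 experiment.

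The lowered genes included germline genes. *Sohlh1*, a bHLH factor of oogonia and spermatogonia, read 146 and 161 with empty vector and 88.4 and 48.4 with Dnmt1 in wild type, 309 and 283 against 158 and 145 in mutant cells, and 22.7 and 11.6 against 11.3 and 0 in knockout cells. Its differences were -1.22, -0.96 and -2.31, and the last rests on values near 0, where the added 1 shapes the size. *Tesmin*, a cysteine-rich protein of the testis, read 145 and 144 with empty vector and 79.8 and 90.7 with Dnmt1 in wild type, 217 and 182 against 115 and 114 in mutant cells, and 40.6 and 39.1 against 25.7 and 23.8 in knockout cells, with differences of -0.76, -0.79 and -0.67. *Fthl17f*, an X-linked ferritin-like gene of germ cells and early embryos, read 92.9 and 92.8 with empty vector and 50.04 and 45.3 with Dnmt1 in wild type, 179 and 177 against 102 and 135 in mutant cells, and 9.74 and 6.35 against 0 and 0 in knockout cells. Both Dnmt1 samples of knockout cells are listed at 0, and reads of this family of near-identical copies are uncertain. These 3 genes are not in the list of methylation-controlled germline genes, and none of its 19 genes with a mean of 50 is a member. Of those 19, 11 were lowered and 0 raised by at least 0.4 in wild type, 8 and 0 in mutant cells, and 0 and 10 in knockout cells, with median differences of -0.56, -0.37 and 0.56. *Dazl*, an RNA-binding protein of germ cells on that list, shows the split: it read 963 and 935 with empty vector against 546 and 597 with Dnmt1 in wild type, 2795 and 2804 against 1949.6 and 2005 in mutant cells, and 87.7 and 56.1 against 94.1 and 138 in knockout cells.

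The promoter of *Sohlh1* holds CACGTG, the E-box that many germline promoters carry, 3 times; 6.05% of all promoters hold it at least 1 time, as do 2 of the 25 lowered and 1 of the 17 raised genes with a promoter. Its 250 bases before the start lie at chr2:25847249-25847498, minus strand, with the E-boxes in capitals.
Sohlh1: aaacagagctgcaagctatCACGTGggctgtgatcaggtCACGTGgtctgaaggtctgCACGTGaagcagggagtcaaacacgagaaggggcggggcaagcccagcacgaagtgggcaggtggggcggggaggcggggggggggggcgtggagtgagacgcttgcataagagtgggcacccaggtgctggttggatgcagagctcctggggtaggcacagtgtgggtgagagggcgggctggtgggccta

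The observed over expected CpG ratio in these 250 bases had a median of 0.385 over the 25 lowered genes with a promoter, against 0.378 over all promoters, and ranged from 0.0474 (*Tmem176a*) to 1.03 (*Irf8*). For the raised genes the comparison is void, because only 17 of 34 had an entry.

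Lowered genes of other roles included *Irf8*, a transcription factor of myeloid cells, which read 181 and 223 with empty vector and 149 and 102 with Dnmt1 in wild type, 243 and 275 against 114 and 142 in mutant cells, and 128 and 113 against 65.1 and 66.6 in knockout cells. *Lrrc8e*, a subunit of volume-regulated anion channels, had differences of -0.65, -0.67 and -0.70. *Oas3*, named for its tie to the interferon genes after its values were seen, read 259 and 259.7 with empty vector and 164 and 179 with Dnmt1 in wild type, 259.6 and 273 against 154 and 157 in mutant cells, and 120.2 and 152 against 139 and 73.8 in knockout cells. Its knockout samples overlapped. *Txnip*, the glucose-induced protein that binds thioredoxin and limits glucose uptake, read 18530.2 and 17727 with empty vector and 8730.0 and 9896 with Dnmt1 in wild type, 35988 and 33943 against 18579 and 18061 in mutant cells, and 5893 and 6358 against 4613 and 4634 in knockout cells. Its differences were -0.96, -0.93 and -0.40, and it only just passed in knockout cells. *Pygl*, the glycogen phosphorylase of liver, read 1391 and 1189.7 with empty vector and 796 and 863 with Dnmt1 in wild type, 1608 and 1345 against 1122 and 1065 in mutant cells, and 213 and 172 against 125 and 125 in knockout cells. *Maob*, a monoamine oxidase, had differences of -0.83, -0.53 and -0.72, and in knockout cells its higher Dnmt1 sample, at 85.2, all but met an empty-vector sample at 86.1. *Adssl1*, an adenylosuccinate synthase of muscle, differed by -0.63, -0.70 and -0.51, and *Echdc3*, a hydratase-like protein, by -0.52, -0.78 and -0.60. For *Cmc4*, a small mitochondrial protein whose gene overlaps *Mtcp1*, they were -0.63, -0.62 and -0.49. *Hrc*, the histidine-rich calcium-binding protein of the sarcoplasmic reticulum and the mesoderm list's lowered member, differed by -0.45, -0.49 and -0.77, opposite to *Actc1* of the same list. Of its 15 genes with a mean of 50, 3 were raised and 2 lowered by at least 0.4 in wild type, 5 and 1 in mutant cells, and 3 and 5 in knockout cells, with median differences of 0.00, -0.06 and 0.03. *Tmem176a*, a membrane protein, read 251 and 262 with empty vector and 188 and 179 with Dnmt1 in wild type, 115 and 88.6 against 63.5 and 57.2 in mutant cells, and 902 and 909.9 against 629 and 621 in knockout cells. The others named by rank were *Tspan1*, with differences of -0.81, -0.72 and -0.59, *Zfp264* (-0.71, -0.58 and -1.01), *Cd164l2* (-0.82, -0.77 and -0.56), *Pdzk1* (-0.87, -0.54 and -1.05) and *Klhdc9* (-0.60, -0.54 and -0.97). *Arl4d*, *Lamb3*, *Fcgbp*, *Adam11*, *Adhfe1*, *Zfr2*, *N4bp2l1*, *Cryzl2*, *Spock3* and *Gpr146* complete the list.

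**Figure D3:**
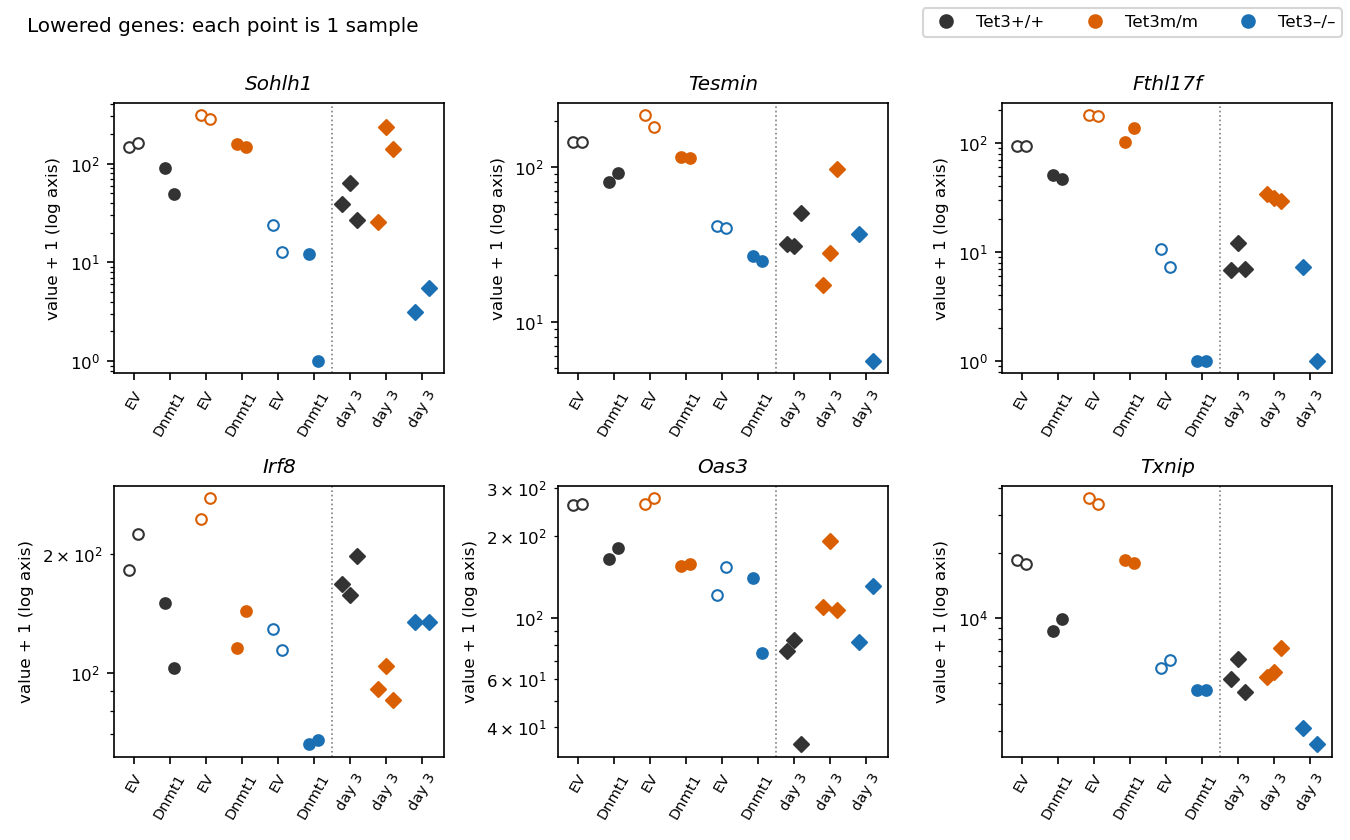
Value + 1 in each sample, on a log axis, for 6 lowered genes: open circles are empty-vector samples, filled circles Dnmt1 samples and diamonds untransfected day 3 samples, coloured by genotype. The filled circles lie below the open ones of their genotype except for *Oas3* in knockout cells, and in the Dnmt1 experiment *Sohlh1*, *Tesmin* and *Fthl17f* are lowest in knockout cells.

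At the threshold, the smallest difference was 0.402 in size for *Msrb3* and 0.404 for *Nes*, inside, and 0.399 for *Ano3* and 0.397 for *Gm11249*, outside. On the lowered side these sizes were 0.401 for *Lamb3* and 0.405 for *Txnip*, inside, and 0.3999 for *Rasl12* and 0.397 for *Dennd2d*, outside.

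The day 3 samples, which the rule did not use, show the 63 genes without transfection; all 63 passed the filter of a mean of 10 and were tested by limma among 17915 genes, where a call is an adjusted p under 0.05 with a fold above 1.5. In mutant cells against wild type, 7 of the 34 raised genes were called higher and 2 lower, against 5.06% and 5.19% of all genes, and 0 of the 29 lowered genes were called higher and 3 lower. With 1 sample left out, 3 to 8 raised genes were called higher. With DESeq2 11 were, and 4 lowered genes were called higher too, where it called 2312 of the 17915 genes. The raised genes had a median log2 difference of 0.61 and the lowered genes of -0.04, with 0.00 for all genes. The 28 pluripotency factors summed to 36246, 44614 and 35719 in wild type and 46480.3, 63079 and 85838 in mutant cells on day 3, led by *Lin28a*. The 24 neural markers, *Nes* and *Tubb3* included, summed to 38049.9, 32427 and 43839 against 23198, 24684 and 25355, without overlap. The interferon list (24 of 26 genes, *Ifit3* and *Rigi* being absent, led by *H2-K1*) summed to 19099, 17976 and 18379 against 16631, 17388 and 16085, again without overlap. The part of these lists in the differences was not tested.

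*Glipr1*, a secreted protein of the CAP family, read 45.3, 13.1 and 53.4 in wild type and 224, 136 and 219 in mutant cells (log2 difference 2.53, SE 0.47, limma adjusted p = 0.00633). All mutant samples lay above all wild-type samples. *Platr27* read 25.1, 23.3 and 10.9 in wild type against 101, 64.1 and 87.6 in mutant cells (log2 difference 2.10, SE 0.41, limma adjusted p = 0.00791). *Sh3bgr*, a small thioredoxin-fold protein, read 353, 128 and 304 against 978, 579 and 896 (log2 difference 1.73, SE 0.36, limma adjusted p = 0.0105), again without overlap. *Irs4* read 66.5, 76.6 and 126 against 221, 229 and 217 (log2 difference 1.36, SE 0.34, limma adjusted p = 0.0248). The 2 raised genes called lower were *Tubb3*, at 1636, 1311 and 2169.5 in wild type and 551, 693 and 693 in mutant cells (log2 difference -1.38, SE 0.23, limma adjusted p = 0.00330), and *Adamts6*, at 200.5, 208 and 262 against 136, 77.6 and 79.4 (log2 difference -1.23, SE 0.26, limma adjusted p = 0.0121). Each mutant sample of both genes was below each wild-type sample. Among the lowered genes *Tmem176a* read 654, 511 and 401 in wild type and 262, 241 and 196 in mutant cells (log2 difference -1.14, SE 0.23, limma adjusted p = 0.00870), *Irf8* 167, 156 and 196 against 90.1, 103 and 84.5 (log2 difference -0.89, SE 0.21, limma adjusted p = 0.0190), and *Hrc* was called lower as well (limma adjusted p = 0.0414), a call lost in 5 of 18 alternatives. *Irs4*, *Irf8* and *Adamts6* lost their calls in 4, 3 and 1 of 18 alternatives. *Tubb3* and *Irf8* lie on chromosome 8, whose 866 tested genes had a median of -0.34 in this comparison, and *Tmem176a* on chromosome 6, with a median of -0.22 over 800 genes. The part of these shifts in the 3 calls was not tested.

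In knockout cells against wild type on day 3, 1 raised gene was called higher, where 0.458% of all genes were called higher and 0.184% lower, and 1 lowered gene was called lower. *Nes* read 10354, 6667 and 11618 in wild type and 21181 and 19688 in knockout cells (log2 difference 1.14, SE 0.21, limma adjusted p = 0.0493), and *Txnip* 5219, 6471 and 4517 against 3094 and 2597 (log2 difference -0.91, SE 0.17, limma adjusted p = 0.0493). Neither gene's groups overlapped. Both calls rest on an adjusted p just under the threshold. *Nes* lost its call in 10 and *Txnip* in 11 of 18 alternatives. With DESeq2, 14 raised genes were called higher and 3 lowered genes lower, where 917 of the 17915 genes were called. With edgeR 0 members were called, and 86 of all genes. The median log2 difference was 0.89 over the raised and -0.36 over the lowered genes, with -0.01 for all genes; 30 of the 34 raised genes had estimates above 0 and 23 of the 29 lowered genes below 0. *Vim* read 25214, 14371 and 30885 in wild type and 54399 and 38891 in knockout cells, and *Actc1* 546, 186 and 603 against 2093 and 1822, neither of which passed (limma adjusted p = 0.107 and 0.0508). *Sohlh1* was at 37.6, 62.6 and 25.7 in wild type, 24.6, 234 and 141 in mutant cells and 2.12 and 4.55 in knockout cells, with a mutant group that spans the wild-type values. *Ifit1* stood at 30.8, 52.3 and 27.7 in wild type, at 12.3, 20.2 and 12.2 in mutant cells and at 40.3 and 37.6 in knockout cells. *Isg15* stood at 48.2, 59.8 and 39.5 in wild type, at 24.6, 28.7 and 8.15 in mutant cells and at 44.5 and 56.9 in knockout cells. Both genes' mutant samples lay below every wild-type sample, and neither gene was called in either comparison. Endogenous *Dnmt1* read 15500.0, 17005 and 16760.0 in wild type, then 13237, 13978 and 14201 in mutant cells and 15619 and 13661 in knockout cells. The 24 neural markers, *Nes* included, summed to 38049.9, 32427 and 43839 in wild type and 47036 and 42778 in knockout cells. Other lists summed higher in both knockout samples than in any wild-type sample: targets of SRF and YAP (19 genes, led by *Actg1*) at 449240.0, 318795 and 469536 against 814073 and 737245, feeder fibroblast markers (12 of 14 genes, *Col1a1*) at 41020.2, 26909 and 31519.6 against 59202 and 68870.5, and trophoblast and simple epithelium (15 genes, *Krt8*) at 101913, 73609.7 and 96939.7 against 161419 and 139602. The same held for extraembryonic endoderm (25 of 26 genes, *Apoa1* being absent, led by *Sparc*), at 150870.0, 141576 and 178895 against 203850.0 and 182594, and, barely, for the mesoderm list (19 of 21 genes, *Mesp1* and *Msgn1* being absent, led by *Bmp4*), at 6502, 5907 and 6870.3 against 6929 and 6893. The part of these lists in the differences was not tested.

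The genotypes were also compared in the Dnmt1 experiment, on means over both vectors (4 samples per genotype). These samples also chose the genes: the mean of 50 was taken over them, and 15 raised and 11 lowered genes fall short of it in at least 1 genotype. *Msc*, *Myo1f*, *Fthl17f* and *Sohlh1*, for instance, fall short of it in knockout cells. Some members thus had to differ between genotypes, and the counts, calls and medians below support nothing. A p-value from these samples draws on the choice as well, so none is printed here. *Actc1* in mutant cells and *Nr0b1* in knockout cells, whose means there fall short of 50, are left out of the genes named below. In mutant cells against wild type, 11 of the 34 raised genes were called higher and 18 lower, where 11.7% and 11.5% of 18055 genes were. Of the 29 lowered genes 6 were called higher and 5 lower. In knockout cells against wild type, 22 raised genes were called higher and 9 lower, where 12.3% and 15% of all genes were. In the same comparison 1 lowered gene was called higher and 18 lower. Median log2 differences in mutant cells were -0.65 over the raised and 0.10 over the lowered genes, and in knockout cells 0.94 and -0.81, with 0.01 and 0.00 over all genes. Both comparisons share the wild-type samples. In mutant cells, the other called genes with the lowest p are given as a description. Lower than wild type were *Nes* (log2 difference -2.06), *Cd248* (-2.16) and *Vim* (-1.15). Higher than wild type were *Sall3* (log2 difference 2.16), *Txnip* (0.96), *Arl4d*, a small GTPase of the ARF family (1.53), and *Irs4* (1.64).

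In knockout cells, the members named in the same way are again a description. Higher than in wild type were *Nes* (log2 difference 1.40), *Cd248* (1.93), *Vim* (1.01) and *Msrb3* (1.34). Lower were *Txnip* (log2 difference -1.29), *Pygl* (-2.73) and *Sall3* (-1.64). The 4 knockout samples of each of these 7 genes lay outside the range of the 4 wild-type samples. The 7 genes were picked by their low p in this comparison, so nothing is read from that. *Msrb3* read 883 and 757 with empty vector and 1199.8 and 1129 with Dnmt1 in wild type, and 2215 and 2086 against 2523 and 3199 in knockout cells. The genotype's marker sums, given above, differ in the same samples: pluripotency factors were highest in mutant cells and lowest in knockout cells, and the neural sum was highest in knockout cells, where *Sox1* was lowest. Sums of trophoblast and simple epithelium, SRF and YAP targets and feeder markers were lowest in mutant cells and highest in knockout cells. Their part in the members' genotype differences was not tested. Chromosome 8, which holds *Tubb3*, *Nrp1*, *Irf8*, *Lrrc8e* and *Spock3*, had a median of -0.44 in mutant cells and -0.37 in knockout cells over 881 genes, and its part was not tested. *Tubb3* was higher in both (log2 difference 0.64 in mutant cells and 0.75 in knockout cells), in samples that also chose it. Its day 3 values in mutant cells were lower than in wild type.

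In the Tet3-CD experiment 5441 against 4755 was read for *Tet3* with Tet3-CD and with empty vector in wild type, 5232 against 1849.9 in mutant cells and 2759 against 2069.8 in knockout cells. An additive fit of genotype and vector over its 6 samples, with 2 residual degrees of freedom, called 0% of 17481 genes higher and 0% lower, so 0 of the 62 members tested were called by limma. At an unadjusted p under 0.05 there were 3 raised and 4 lowered members, and 1007 of all 17481 genes. Tests by edgeR and DESeq2 on recovered reads also called 0 members. *Sohlh1* did not reach the mean of 10. The median log2 difference was 0.35 over the raised and -0.25 over the lowered genes, with -0.01 for all genes. In the knockout pair alone, Tet3-CD minus empty vector had a median of 0.74 over the raised genes, 29 of 34 above 0, and -0.69 over the lowered genes, 27 of 28 below 0, with -0.02 for all genes. In wild type the medians were 0.11 and -0.14, and in mutant cells -0.06 and -0.02. With 1 sample per arm these differences have no replicate check.

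In that pair *Nes* read 5042 with empty vector and 12359 with Tet3-CD, *Vim* 10699 and 28385, and *Sh3bgr* 141 and 753. On the lowered side *Pygl* read 682 and 155, and *Txnip* 6150.3 and 3572. *Ifit1* and *Isg15* were 2 of the 5 raised genes that were lower with Tet3-CD in this pair, from 537 to 255 and from 517 to 228, and the interferon list, led by *H2-K1*, summed to 36679 and 24365. Targets of SRF and YAP summed to 295446 and 561892, and *Dnmt1* read 20149.8 and 15450.5. In the same order, extraembryonic endoderm (26 genes, led by *Col4a1*) summed to 387941 and 250420.0, pluripotency factors (28, *Lin28a*) to 40276 and 30237 and neural markers (24, *Nes*) to 18807 and 25198. Trophoblast and simple epithelium (14 of 15, *Krt8*) came to 120704 and 152228, feeder markers (12 of 14, *Col1a1*) to 34139 and 43797, and the mesoderm list (19 of 21, *Snai1*) to 6640.4 and 6404. The part of these lists in the pair's differences was not tested. In wild type and mutant cells, *Dnmt1* read 14455 and 11859 with empty vector and 14184 and 12269 with Tet3-CD. With empty vector, wild type read 5410 for *Nes* and 21019 for *Vim*, above the knockout sample, and 119 for *Sh3bgr*, below it. On day 3 both knockout samples lay above every wild-type sample in *Nes* and *Vim*. *Ifit1* and *Isg15* read 130 and 82.3 in the empty-vector wild-type sample. The part of the empty-vector knockout sample in the pair's differences was not tested.

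**Figure D4:**
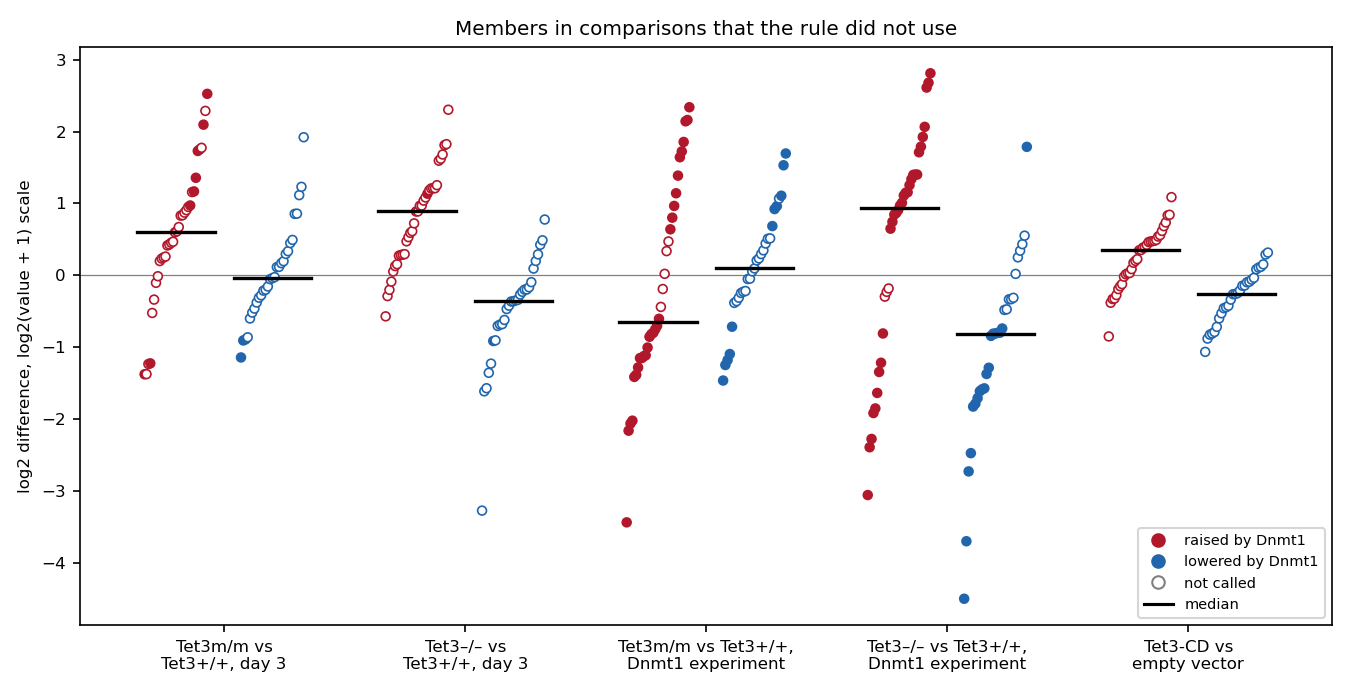
Log2 differences of the raised (red) and lowered (blue) genes in the 5 other comparisons, each point 1 gene, filled where limma called it, with the median of each list as a bar. The raised genes have medians of 0.61 and 0.89 on day 3 and -0.65 and 0.94 in the Dnmt1 experiment (mutant and knockout against wild type), and no gene is filled for Tet3-CD. The samples of the Dnmt1 experiment also chose the genes, so its points support nothing. The filter on the mean drew on the same 3 genotypes, so the day 3 points are a description.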

How the data were processed

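RNA-seq values of 26 samples were used; other assays were not used here. Per the methods, the authors trimmed reads with Trim Galore 0.6.7, aligned them with STAR 2.7.9a and counted them per gene with featureCounts. For the genome, the methods name build mm39 and the submitters' notes mm10. The deposited signal values are labelled as counts normalized by DESeq2. All (100%) of the values in each sample came within 0.01 of whole multiples of the worth of 1 read, and these reads entered edgeR and DESeq2 as alternatives. The 2 empty-vector wild-type columns of the Dnmt1 experiment share 1 header, which gives the group but no replicate number. The members and lists were chosen with earlier results of these data known. Genes with a mean of at least 10 were fitted with limma 3.58.1 (R 4.3.3; empirical Bayes with trend) on log2(value + 1), all groups of an experiment in 1 fit, with Benjamini-Hochberg adjustment over all genes tested. Fold changes are on that scale, which understates changes of low genes. Genes named are the 15 raised and 15 lowered members with the largest smallest difference, members at the threshold, list members and, per comparison, the 4 called members with the lowest p in each direction, less 2 that fell short of the filter in a genotype compared; others were named after their values were seen. Replicates of 1 group differed beyond counting error (chi-square per degree of freedom 3.96 to 87.2). The methods state 3 biological replicates in general, which the 2 or 1 samples per arm of the transfection experiments do not match, and no label says that these came from separate cultures, so p-values measure a spread that may be technical. Names and neighbours of genes came from RefSeq GRCm38.p6, which is not the authors' build. Scripts were tested on simulated data. Alternatives were pseudocounts of 0.1 and 5, other filters, edgeR 4.0.16, DESeq2 1.42.0, TMM rescaling, a replicate block, only the genotypes compared, no fold threshold, and each replicate left out.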

Additional observations from a re-analysis of the deposited data

Results flagged for a closer look

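Of the 63 genes, 2 had mutant samples that lay wholly on one side of wild type on day 3 and wholly on the other in the Dnmt1 experiment with both vectors pooled. The share of all genes that do so was not computed, and the samples of the Dnmt1 experiment also chose the genes. Nothing is therefore read from this count. *Sh3bgr* was higher in mutant cells on day 3 (log2 difference 1.73) and lower over both vectors of the Dnmt1 experiment (-1.01), where it read 98.8 and 116 in the empty-vector wild-type samples and 43.9 and 52.1 in mutant cells. *Gm48529* did the same, at 0.97 and -1.41. *Tubb3* went the other way, at -1.38 and 0.64. Its mutant and wild-type samples in the Dnmt1 experiment lay apart within each vector but overlapped with both vectors pooled. The difference between the experiments was not tested.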

How the results depend on the processing

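The number of genes that meet the rule depends on its thresholds by construction: without a filter on the mean 112 genes were raised and 136 lowered, with a mean of at least 200 18 and 10, and with a 1.5-fold threshold 10 and 6. Other pseudocounts, TMM rescaling and the demand that samples lie apart gave 30 to 36 raised and 25 to 31 lowered genes. Leaving out each of the 12 samples in turn gave 30 to 41 raised and 26 to 43 lowered genes, and 11 of the 34 raised and 6 of the 29 lowered members were kept every time. On day 3 the main fit called 1836 of all genes in mutant and 115 in knockout cells, and DESeq2 2312 and 917. The day 3 calls in knockout cells were the least stable. Over all genes, 664 were called there with only knockout and wild-type samples in the fit. Without mutant replicate 1 it was 706 genes, and without mutant replicate 3 565. The count of 2 members became 0 with a pseudocount of 0.1, 6 with 5, 0 with a mean of at least 50, 0 with edgeR, 17 with DESeq2, 0 with TMM rescaling and 12 with only those 2 genotypes in the fit, and lay between 0 and 14 with 1 sample left out: 14 without mutant replicate 1, 9 without mutant replicate 3 and 0 without any 1 of the others. The cause was not tested. In mutant cells on day 3 the count of 12 became 21 with DESeq2 and lay between 7 and 14 with 1 sample left out, the lowest without wild-type replicate 2 or mutant replicate 2. The cause was not tested. Of the 12 called members, *Gm48529* lost its call in 6 of those 8 fits, *Hrc* in 5, *Irs4*, *Cd40* and *H2-M5* in 4 each, *Irf8* in 3 and *Adamts6* in 1. Over both vectors of the Dnmt1 experiment the counts of 40 and 50 lay between 38 and 41 in mutant cells and 49 and 52 in knockout cells with 1 sample left out, within 1.5 times 40 and 50 in every alternative. The count for Tet3-CD was 0 in every alternative, with each genotype's pair left out included. With the replicate number as a block on day 3, 14 members were called in mutant cells and 3 in knockout cells, the latter sharing 1 with the fit without it. Same-numbered samples did not deviate together (correlations of -0.10 to 0.08 across genes). Deviations from means of 2 or 3 samples cannot settle whether the numbers pair samples. In the Dnmt1 experiment 2 columns carry no replicate number, so a block was fitted under either order of them, chosen after the values were seen: 41 members were called in mutant cells and 50 in knockout cells with both. Its numbered samples did not deviate together either (-0.05 to 0.03). Where 1 sample was left in a group, it is assumed to vary like the others. Members near a mean of 50 rest on few reads, and 1 sample per arm limits the Tet3-CD values.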
